A study of Homo sapiens with 8 samples.

Results

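JAK and STAT genes were described here as 9 of the 20136 protein coding genes of the GENCODE annotation of GRCh37: the kinases JAK1, JAK2, JAK3 and TYK2, the transcription factors STAT3, STAT5A, STAT5B and STAT6, and the inhibitor SOCS1. They were chosen by function. Each was described by its best promoter peak, that is the FLI1 peak with the highest -log10 q among those centred within 3 kb of any annotated transcription start site (TSS) of the gene, and by the peaks elsewhere inside the gene. The study measured FLI1 occupancy by ChIP-Seq, with a rabbit polyclonal antibody, in the established lines OCI-Ly1 and VAL, which derive from diffuse large B cell lymphoma of the germinal center B cell (GCB) type. The labels name no treatment, give 2 FLI1 libraries per line (rep1 and rep2) and do not say whether the replicates were separate cultures. Each line stands for itself as a model, and no expression was measured in these libraries, so the cell type was not checked by markers. A peak is called passing where its -log10 q reaches 3, a false discovery rate of 0.001.

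A cytokine receptor has no kinase activity of its own, and the JAK kinases bound to its tail phosphorylate it once a ligand is present. STAT factors dock there, are phosphorylated, pair and move to the nucleus, where they bind DNA and switch genes on. SOCS1 is itself induced by STAT factors and shuts the JAK kinases off, and in lymphomas of germinal center type STAT6 and SOCS1 are known targets of mutation.

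OCI-Ly1 rep1 has a list of only 37 intervals, 33 of them over 1 Mb. All 9 members lay inside such an interval, 27.7 to 133.3 Mb long and with a -log10 q of 1.06, so that this list places no site and was not used. The other lists held 1107379 peaks with 5354 passing in OCI-Ly1 rep2, 237178 with 973 passing in VAL rep1, and 986629 with 6474 passing in VAL rep2. The list gives no reads, and those at a summit were solved from its fold and p-value. A passing peak had at least 6, 8 and 6 reads in these libraries, in this order, so that the promoter sites below rest on few reads. The intervals given with reads are exact Poisson 95% intervals and cover counting error only. With 1 usable list in OCI-Ly1 no difference between the lines has a replicate check, and the -log10 q of a peak is set here against the other peaks of its own list.

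FLI1 is an ETS factor, a family that binds a GGAA core, and the sequences shown here are copies of its motif at the member promoters. Peaks were counted without regard to the motif. The letters sought were CCGGAAA or CCGGAAG on either strand, within 500 bp of the canonical start, and each copy holds the GGAA core. Such a copy was found at 6 of the 9 members (7 copies), against 29.9% of 19856 protein coding genes with a canonical start, and none was found at JAK2, STAT5A and STAT5B. For each member 1 copy is shown, with 11 bases on either side, in GRCh37, 5′ to 3′ on the strand of the motif, with the motif in capitals. The first 3 lay within 50 bp of the summit of a best promoter peak, and the other 3 shown did not.
STAT3, chr17:40540494-40540522, plus strand: ccgccgcagctCCGGAAAccgctgaatta
STAT6, chr12:57505144-57505172, minus strand: agaaggagaagCCGGAAAcagcgggctgg
JAK1, chr1:65432314-65432342, plus strand: cagcggcagccCCGGAAAgcggggcgggg
JAK3, chr19:17958925-17958953, plus strand: ggcagaaagttCCGGAAGcctctgcatca
TYK2, chr19:10491176-10491204, minus strand: cttgtgttcccCCGGAAGggtgagtctgg
SOCS1, chr16:11350298-11350326, minus strand: ccgagaagtggCCGGAAGgcgcagggtcg

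In OCI-Ly1 rep2 a promoter peak passed at 2 of the 9 members (22.2%), STAT3 and STAT6, where 19.0% of all protein coding genes had one. VAL rep1 had 0 members with a passing promoter peak, where 3.14% of protein coding genes had one. In VAL rep2 it was 3 members (33.3%), STAT3, SOCS1 and JAK3, against 20.9% of protein coding genes. STAT3 alone among the 9 passed in both lines (background 12.6%), 4 members passed in either line (background 27.4%), and 0 in all 3 libraries (background 2.73%). Without VAL rep2 the number in both lines was 0. A passing peak inside the gene and over 3 kb from its TSS was listed for 1 member, JAK2, in VAL rep2, where 5.71% of protein coding genes had one. No member had such a peak in OCI-Ly1 rep2 (background 4.21%) or in VAL rep1 (background 0.839%).

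The members as a set lay near this background. Their median best -log10 q was 2.18 in OCI-Ly1 rep2, 0.47 in VAL rep1 and 2.70 in VAL rep2. The 0.47 leaves out SOCS1, which has no listed promoter peak in VAL rep1. The medians over all protein coding genes, with unlisted genes counted as 0, were 1.22, 0.18 and 1.64. In each library 7 of the 9 members exceeded that median. The members also have more annotated TSS, a median of 21 against 5 per protein coding gene, and so a larger promoter window. Among protein coding genes with 20 or more TSS, 32.7%, 4.94% and 36.3% had a passing promoter peak in the 3 libraries, against 11.8%, 2.03% and 12.6% of genes with 1 to 4 TSS. Of the members, 7 have 10 or more TSS, and SOCS1 has 2.

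**Figure D1:**
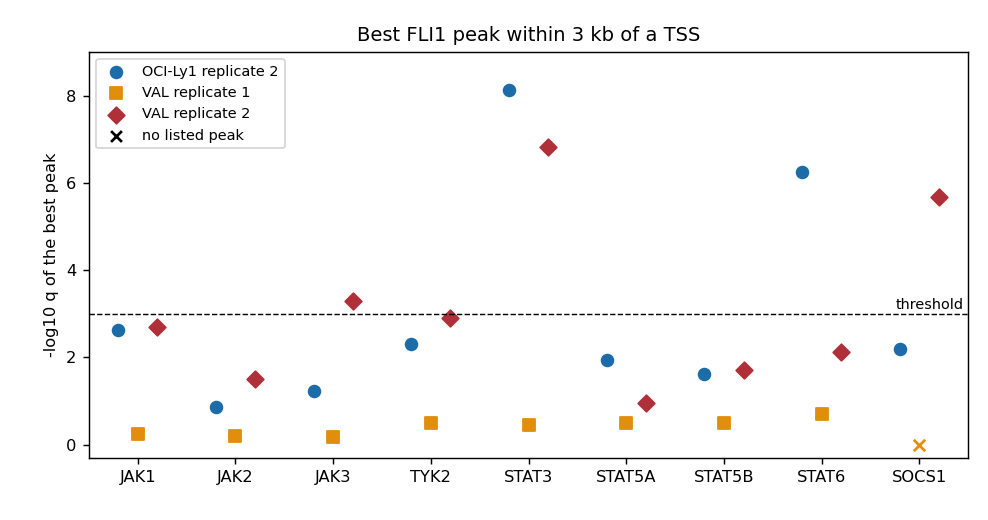
Best promoter peak of each member in the 3 usable libraries, as -log10 q (vertical axis), with the threshold of 3 as a dashed line and a cross where no peak was listed. STAT3 reached 8.14 and 6.82 in OCI-Ly1 rep2 and VAL rep2, and all points of VAL rep1 were at 0.70 or lower.

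**Figure D2:**
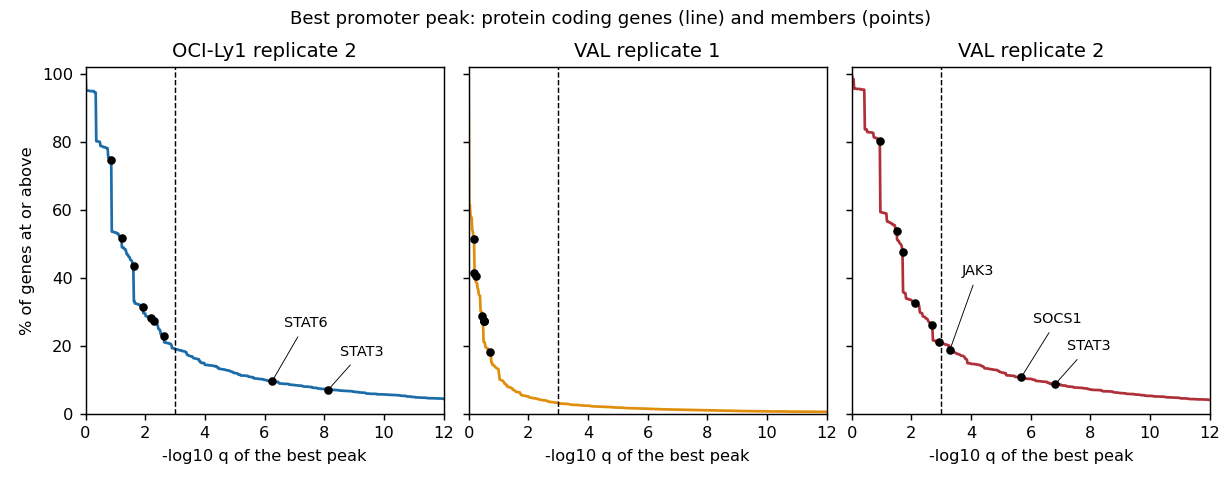
Share of protein coding genes whose best promoter peak had at least the -log10 q on the horizontal axis (line, 1 panel per library), with the members as points and the threshold as a dashed line. Members with a passing peak are named, and most of the others lay between the median of all genes and the threshold in OCI-Ly1 rep2 and VAL rep2.

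Among the kinases, JAK3 was the only one with a passing promoter peak. JAK3 pairs with the common gamma chain, the receptor subunit shared by interleukins of lymphocytes. The gene lies on the minus strand at chr19:17935589-17958880, and its best -log10 q was 1.22 in OCI-Ly1 rep2, 0.18 in VAL rep1 and 3.29 in VAL rep2. The 3 values belong to different places, with summits 2568 bp upstream, 7380 bp downstream and 990 bp upstream of the canonical start. The passing peak, at chr19:17959683-17960205, had 6 reads (interval 2.2 to 13.1) over a background of 0.355 and a fold of 5.17, the lowest read number that passes in that library. Neither of the other libraries lists a peak over it, and it was lost with a window of 1 kb or a threshold of 5. Its centre, by which the window was applied, lay 1064 bp from the nearest TSS, and its summit 901 bp. The letters at the summit are shown because this is the weakest of the passing sites. They hold no CCGGAAA or CCGGAAG and 1 GGAA core, in capitals as TTCC.
JAK3, chr19:17959731-17959831, minus strand, around the summit in VAL rep2: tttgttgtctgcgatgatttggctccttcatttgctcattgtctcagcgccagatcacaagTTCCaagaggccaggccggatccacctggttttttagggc
The motif copy of JAK3 printed first, 148 bp upstream of the canonical start, was under a peak with a -log10 q of 0.85 in VAL rep2 and under none in the other libraries.

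JAK1, the kinase used by most of these receptors, had a best -log10 q of 2.62 in OCI-Ly1 rep2, 0.24 in VAL rep1 and 2.70 in VAL rep2. None of them passed, and they again lay at 3 places of a gene of 234532 bp. The peak of OCI-Ly1 rep2, chr1:65431657-65432784, was at the canonical start with 5 reads (1.62 to 11.7), and the motif copy of JAK1 printed above lay 16 bp from its summit. The peak that VAL rep2 lists there had a -log10 q of 1.71, with 4 reads and a summit 360 bp away. The best peak of VAL rep2 was near the 3′ end, at chr1:65304554-65304832. Its summit lay 2212 bp downstream of the start of a transcript with a retained intron. OCI-Ly1 rep2 lists a peak of 1.61 over that place, with its summit 20 bp away.

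TYK2, the partner of JAK1 at the type I interferon receptor, lay just under the threshold in VAL rep2. Its best -log10 q was 2.30 in OCI-Ly1 rep2, 0.50 in VAL rep1 and 2.91 in VAL rep2, with 5, 7 and 6 reads. The peaks of OCI-Ly1 rep2 and VAL rep2, chr19:10475747-10476596 and chr19:10476007-10476631, overlap, with summits 362 bp apart. They are not at the canonical start but 15215 and 14853 bp downstream of it, 144 to 506 bp from the start of another protein coding transcript of the gene. Among the members, the 2.91 of TYK2 is the value just below the threshold in VAL rep2, and the 3.29 of JAK3 the value just above it.

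JAK2, the kinase of several growth factor receptors, was lowest of the kinases at its promoter in OCI-Ly1 rep2 and VAL rep2. The best -log10 q was 0.87 with 3 reads in OCI-Ly1 rep2, 0.19 with 9 reads in VAL rep1 and 1.51 with 4 reads in VAL rep2. The peaks of the VAL replicates lay at the canonical start, with summits 26 bp apart. Those 9 reads stood over a background of 3.18, against 0.361 and 0.359 in the other libraries.

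The passing peak of JAK2 lay in an intron, 11795 bp from the nearest TSS of the gene. It had a -log10 q of 4.34, a fold of 5.84 and 7 reads (2.81 to 14.4) in VAL rep2, and neither of the other libraries lists a peak over it. It was lost with a threshold of 5. No GGAA core was within 50 bp of its summit, where 62.5% of the passing peaks of VAL rep2 over 3 kb from a TSS had one.

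STAT3, which carries signals of the interleukin 6 and 10 families, had the highest value of the members in OCI-Ly1 rep2 and VAL rep2, and in VAL rep1 it was below STAT6, TYK2, STAT5A and STAT5B. Its best -log10 q was 8.14 in OCI-Ly1 rep2, 0.45 in VAL rep1 and 6.82 in VAL rep2. These exceeded 92.9%, 71.2% and 91.3% of protein coding genes in the same library. All 3 best peaks overlap at the start of the gene, which lies on the minus strand at chr17:40465342-40540558. OCI-Ly1 rep2 has chr17:40540374-40540855 with 11 reads (5.49 to 19.7) over a background of 0.508, a fold of 7.96. VAL rep2 has chr17:40539825-40540901 with 10 reads (4.8 to 18.4) over 0.518, a fold of 7.25. VAL rep1 has chr17:40540423-40540998 with 10 reads too, but over a background of 3.18, a fold of 2.63.

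Within the STAT3 promoter the summits did not coincide between the lines. The summit of OCI-Ly1 rep2 was 59 bp upstream of the canonical start and 11 bp from the motif copy of STAT3 printed first. The summits of VAL rep1 and VAL rep2 were 301 and 281 bp upstream, 20 bp from each other and 253 and 233 bp from that copy. The lines thus differed by 222 to 242 bp in the place of the summit, with no replicate in OCI-Ly1 to give its error. The window at the VAL summit, shown for contrast, has no CCGGAAA or CCGGAAG and 2 GGAA cores, 1 on each strand, in capitals as TTCC and GGAA.
STAT3, chr17:40540691-40540791, minus strand, around the summit in VAL rep2: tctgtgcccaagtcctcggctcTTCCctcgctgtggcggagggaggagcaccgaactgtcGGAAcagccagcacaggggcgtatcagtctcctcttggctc

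STAT6, the factor of interleukin 4 and 13 signalling, passed in OCI-Ly1 rep2 and not in VAL. Its best -log10 q was 6.25 in OCI-Ly1 rep2, 0.70 in VAL rep1 and 2.12 in VAL rep2. The peak of OCI-Ly1 rep2, chr12:57504698-57505277, had 10 reads (4.8 to 18.4) and a fold of 6.92, and its summit was 12 bp downstream of the canonical start, in the first exon, which is untranslated. VAL rep2 lists chr12:57505069-57505872 there, with 6 reads (2.2 to 13.1) and a fold of 4.36. Their summits were 48 bp apart and lay 25 and 23 bp from the same copy of the motif, the STAT6 sequence above. The read intervals of these peaks overlap, the reads are not scaled between the lines, and the difference between the lines was not tested. The 0.70 of VAL rep1 belongs to a peak 23466 bp upstream of the canonical start, 2689 bp upstream of the most distant start of the gene, and that library lists no peak at the canonical start.

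STAT5A and STAT5B, close copies of each other that act after interleukin 2 and related signals, had no passing promoter peak in any library. The genes are neighbours on chromosome 17, with overlapping starts. STAT5A had a best -log10 q of 1.94 in OCI-Ly1 rep2, 0.50 in VAL rep1 and 0.95 in VAL rep2. STAT5B had 1.61, 0.50 and 1.71. The 0.50 is 1 peak that both genes share, chr17:40440312-40440923 with 7 reads, and the other values lie at 4 different places, 2 per gene. A passing peak stood 4834 bp outside STAT5B in OCI-Ly1 rep2, with a -log10 q of 4.08 and 8 reads, and it lay in the promoter window of GHDC. In the same way a passing peak of VAL rep2 stood 6917 bp outside STAT6, with 4.65 and 8 reads, in the promoter windows of NAB2 and NEMP1. Neither was counted for a member.

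SOCS1, which binds and blocks JAK kinases, passed in VAL rep2 only. The gene is 1788 bp long, on the minus strand at chr16:11348274-11350061. Its best -log10 q was 2.18 in OCI-Ly1 rep2 and 5.68 in VAL rep2, and VAL rep1 lists no peak within 3 kb of its TSS. The peak of VAL rep2, chr16:11348688-11350201, had 8 reads (3.45 to 15.8), a fold of 6.62 and a summit 259 bp downstream of the canonical start, in the intron of the canonical transcript. The peak of OCI-Ly1 rep2 overlaps it, with 7 reads (2.81 to 14.4), but over a background of 0.819 against 0.359, and with its summit 538 bp away, in the coding sequence. The peaks are 1514 and 1547 bp wide and span most of the gene. Neither has a CCGGAAA or CCGGAAG within 50 bp of its summit, and GC made up 79.2% of the letters there in VAL rep2 and 74.3% in OCI-Ly1 rep2, against a median of 67.3% and 66.3% at the passing promoter peaks of these libraries.

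**Figure D3:**
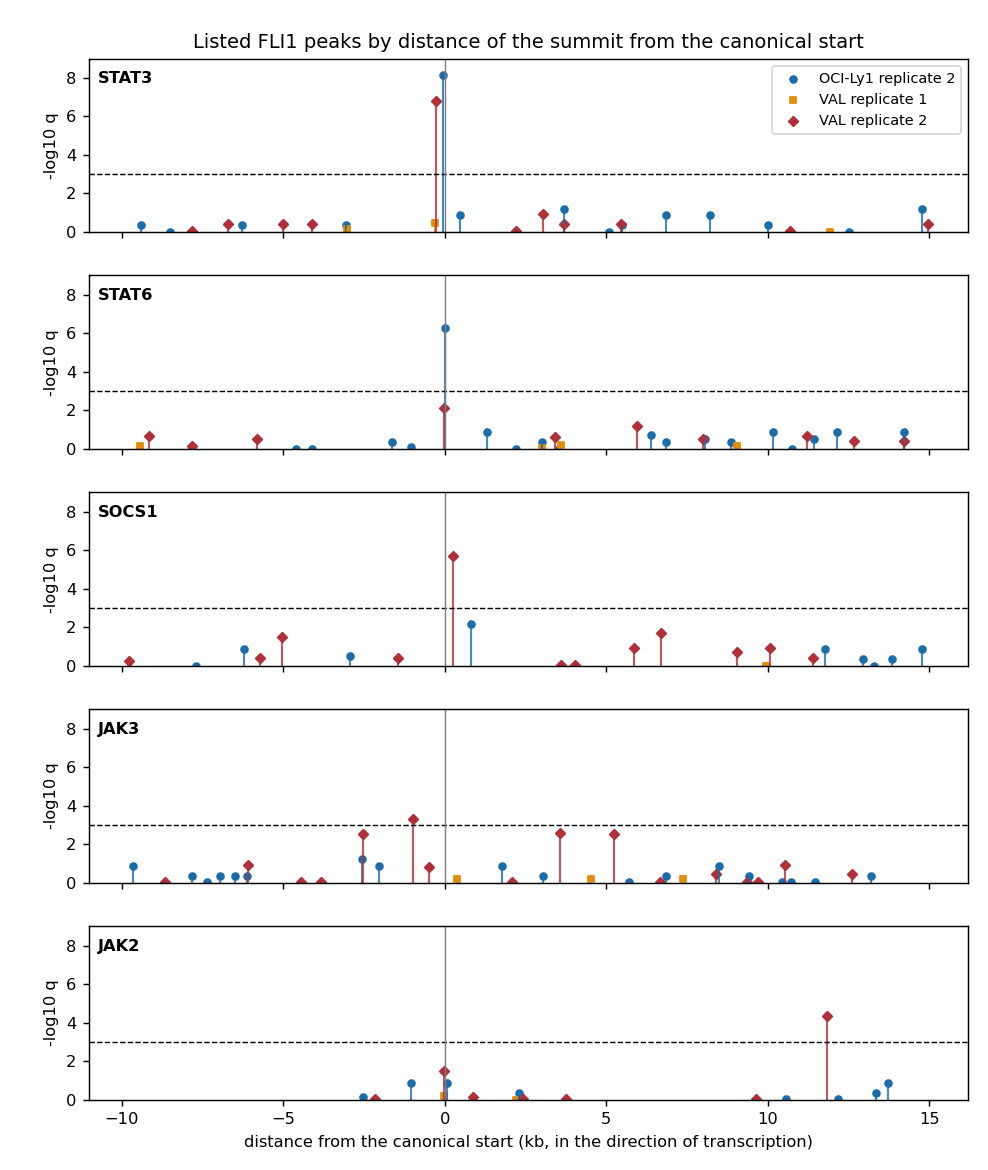
All listed FLI1 peaks from 10 kb upstream to 15 kb downstream of the canonical start of 5 members, by distance of the summit from that start in kb (horizontal axis) and -log10 q (vertical axis), with 1 colour per library and the threshold of 3 dashed. STAT3 has tall peaks with summits 59 bp (OCI-Ly1 rep2) and 281 bp (VAL rep2) upstream of the start. STAT6 has 1 tall peak, 12 bp downstream in OCI-Ly1 rep2, and the other peaks shown for these genes are low. JAK2 has its only passing peak 11830 bp downstream.

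**Figure D4:**
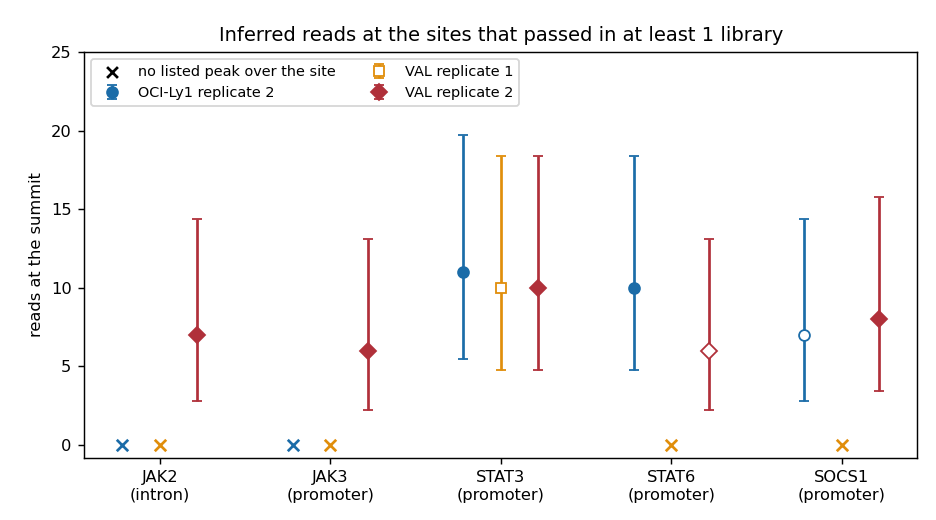
Reads at the summit of the peak over each site that passed in at least 1 library, with exact Poisson 95% intervals as bars, filled where the peak passed, open where it was listed under the threshold, and a cross at 0 where no peak was listed over the site. The intervals of all listed peaks at a site overlap, and at STAT3 the 3 libraries had 11, 10 and 10 reads.

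The canonical start alone gave the same passing members, since all passing promoter peaks lay within 3 kb of it. In OCI-Ly1 rep2 and VAL rep2 the values that were lower there than over all starts were those of TYK2, at 1.57 in OCI-Ly1 rep2 and 1.62 in VAL rep2, of JAK1, at 1.71 in VAL rep2, and of STAT5A and STAT5B, at 0.34 each in OCI-Ly1 rep2. STAT5B also had 0.95 in VAL rep2. VAL rep1 lists no peak within 3 kb of the canonical start of JAK1, STAT5B, STAT6 and SOCS1. Over each gene with 10 kb on either side, OCI-Ly1 rep2 lists 4 peaks at SOCS1 to 106 at JAK1, and VAL rep2 lists 12 to 108 at the same genes. VAL rep1 lists 1 at SOCS1 to 30 at JAK1. The median background of these peaks ranged from 0.284 to 0.427 reads, 1.06 to 2.76 and 0.278 to 0.491 over the members in OCI-Ly1 rep2, VAL rep1 and VAL rep2. The medians over all listed peaks were 0.295, 1.17 and 0.278, and the 2.76 belongs to STAT6.

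The best peak of a member in OCI-Ly1 rep2 was overlapped by a listed peak of VAL rep2 at 7 of 9 members (77.8%), against 69.6% of protein coding genes. In the other direction it was 8 of 9 members (88.9%), against 70.0% of protein coding genes. The median listed peak had 2 reads in both libraries, and the listed peaks covered 9.73 to 27.2% of the member genes with 10 kb on either side in OCI-Ly1 rep2 and 9.51 to 37% in VAL rep2.

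The motif results, read by summit, were as follows. In OCI-Ly1 rep2 both members with a passing promoter peak, STAT3 and STAT6, had CCGGAAA or CCGGAAG within 50 bp of the summit, against 44.7% of all passing promoter peaks of that library. In VAL rep2 it was 0 of the 3 (STAT3, SOCS1 and JAK3), against 37.7%. Read by copy, 38.5% of the 7285 copies near a canonical start lay under a passing peak in OCI-Ly1 rep2, 8.07% in VAL rep1 and 38.3% in VAL rep2. Of the 7 member copies, those of STAT3 and STAT6 were under a passing peak in OCI-Ly1 rep2 and that of STAT3 in VAL rep2. The copy of TYK2, 58 bp downstream of the canonical start, was under a peak of 1.0 in VAL rep2 only, and that of SOCS1 under a peak of 2.18 in OCI-Ly1 rep2 whose summit was 1048 bp away.

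Among best promoter peaks of protein coding genes the share with the motif within 50 bp of the summit was higher in each higher class of -log10 q, in all 3 libraries. It was 2.35% for values under 1, 6.83% from 1 to 2, 17.3% from 2 to 3 and 50.4% from 3 in OCI-Ly1 rep2. The JAK1 peak at the canonical start, at 2.62, is thus in a class where 17.3% have the motif at the summit.

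RefSeq promoters, the 250 bases before to 50 after a start in GRCh38, were matched for all 9 members. CCGGAAA or CCGGAAG was in those of JAK1, JAK3 and STAT3, 3 of 9, against 13.4% of 35116 promoters. Here members are counted per gene and the share is per promoter. A gene with several promoters has more chances of a match, so the figures are not in like units. The longer CCGGAAGT was in that of JAK1 alone, against 4.14%. TTCNNNGAA, a form of the letters that STAT factors bind, was in 0 of 9, against 7.66% of promoters. Forms with another spacing were not sought.

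The 48 other genes of the pathway, in 4 lists chosen by role, had a passing promoter peak in 8 cases (16.7%) in OCI-Ly1 rep2, 2 (4.17%) in VAL rep1 and 10 (20.8%) in VAL rep2. The shares over all protein coding genes were 19.0%, 3.14% and 20.9%. Of the 48, 17 passed in either line (35.4%, background 27.4%) and 2 in both (4.17%, background 12.6%). Their medians of -log10 q were 1.61, 0.28 and 1.71. The 0.28 leaves out 11 genes with no listed promoter peak in VAL rep1. The median over all protein coding genes counts such genes as 0, so these medians of VAL rep1 are not computed alike.

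Of the 16 cytokine receptor chains, 1, 0 and 4 passed in OCI-Ly1 rep2, VAL rep1 and VAL rep2, and none in both lines. The highest values were 3.80 for IFNGR2, a chain of the interferon gamma receptor, in OCI-Ly1 rep2, and 2.26 for CRLF2, a chain of the thymic stromal lymphopoietin receptor, in VAL rep1. IL21R, the receptor of the germinal center cytokine interleukin 21, had 10.79 with 12 reads in VAL rep2. The summit of that peak lay 29038 bp downstream of the canonical start, and its centre within 3 kb of another annotated start. Its best values in OCI-Ly1 rep2 and VAL rep1, 0.89 and 0.17, belong to peaks elsewhere, 1 and 287 bp upstream of the canonical start.

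Of STAT2, STAT4 and IRF9, 0, 1 and 0 passed in OCI-Ly1 rep2, VAL rep1 and VAL rep2. STAT2, which joins IRF9 in the complex that answers type I interferon, had the highest value of these 3 genes in each library, with a -log10 q of 2.89, 4.01 and 1.72 and with 6, 18 and 6 reads. The summits lay 96 to 123 bp upstream of its canonical start, and the peak is also in the promoter window of APOF. STAT2 passed in VAL rep1 and in neither of the other libraries.

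Of the 17 inhibitors, 5, 1 and 4 passed, and 2 in both lines. PTPN6, the phosphatase SHP-1 that acts on JAK kinases in blood cells, passed in all 3 libraries with 29.11, 30.35 and 43.60 and with 25, 48 and 35 reads. The summits lay 7327 to 7340 bp upstream of the canonical start of PTPN6 and had the motif within 50 bp, and the peak is also in the promoter windows of C12orf57 and RNU7-1. PTPN6 was the only gene of these lists that passed in all 3 libraries and had more reads than STAT3 in each of them.

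Of the 12 targets of STAT signals in B cells, 2, 0 and 2 passed, and none in both lines. The highest values were 4.58 for BCL2L1, which blocks apoptosis, in OCI-Ly1 rep2, 1.47 for IRF1, an interferon response factor, in VAL rep1, and 9.80 for MCL1, another blocker of apoptosis, in VAL rep2. MCL1 had 2.18 and 0.88 in OCI-Ly1 rep2 and VAL rep1, and BCL2L1 had 1.71 in VAL rep2 against 0.16 in VAL rep1.

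**Figure D5:**
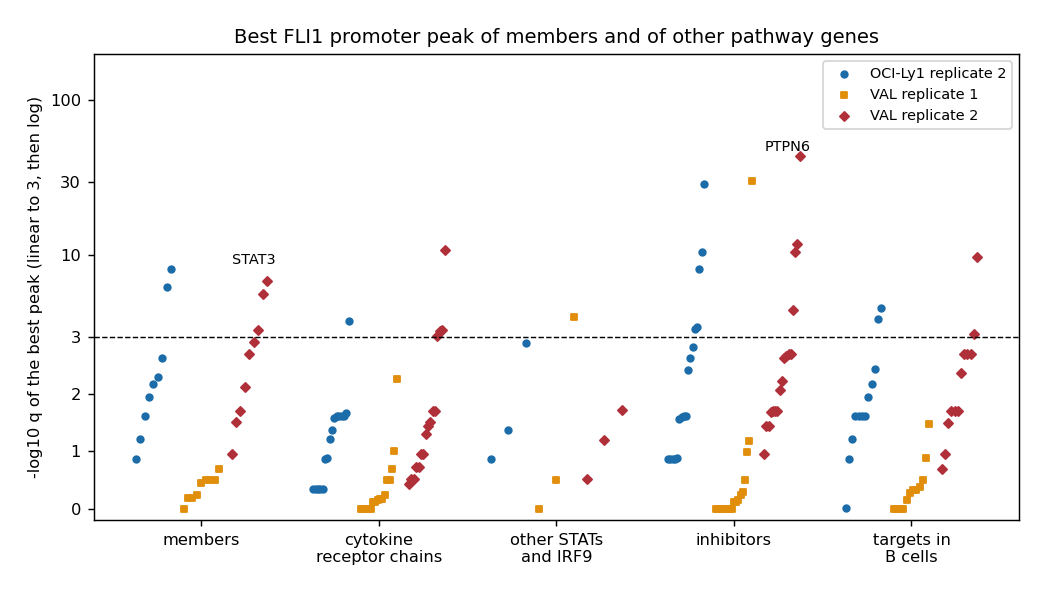
Best promoter peak, as -log10 q (vertical axis, linear to 3 and logarithmic above), of the 9 members and of the 4 lists of other pathway genes, 1 point per gene and library, with unlisted genes at 0 and the threshold dashed. PTPN6 stood at 29.11 or higher in all 3 libraries, and no member exceeded 8.14.

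The protein coding genes whose 3 best values were most like those of STAT3, the member with the highest sum, were SLC27A5, GLTPD2 and FAM27E3. Their Euclidean distances over the -log10 q of the 3 libraries were 0.48, 0.49 and 0.61. SLC27A5 had 8.14, 0.04 and 6.56, and GLTPD2 and FAM27E3 had no listed promoter peak in VAL rep1, which was counted as 0.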

How the data were processed

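FLI1 ChIP-Seq was done in 2 replicates each of OCI-Ly1 and VAL, beside 4 input DNA samples, not analysed here. Reads were aligned by the authors with bowtie2 (GRCh37), and SAMtools removed duplicates, reads with several positions and those of mapping quality below 10, while the submitters' processing notes name CASAVA 1.4 and BWA. The methods name HOMER for peaks, but the deposited lists, 1 per library, have the 10 columns of MACS2. The caller's settings and control are not given in the sources used here. The fold is the deposited ratio of pileup to local background, the -log10 p and -log10 q are deposited values of the authors' caller, and the deposited score was not used. Values were not scaled between libraries.

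The members and gene lists were chosen with earlier results of these data known. Reads and background were solved from fold and p by the MACS2 formulas and tested on simulated peaks. TSS came from GENCODE release 44 on GRCh37, without the mitochondrial genome and with genes of both X and Y kept on X. No test was run, since the design has no treatment and OCI-Ly1 has 1 usable list, so counts stand beside the share of all protein coding genes. Genes named are the members, genes sharing their best peak, list genes passing in all 3 libraries, the top of each list per library, and the 3 genes most like the highest member. APOF, C12orf57, GHDC, NAB2, NEMP1 and RNU7-1 were named after their values were seen. Some items, 1 list gene among them, are not reported here. Alternatives changed the q threshold (2 and 5), a minimum fold of 4, the promoter window (1 kb), the TSS set, the placing of peaks, the replicates, the overlap between lines and the motif and its window. Tools were pysam 0.24.0, scipy 1.17.1, numpy 2.4.6, pandas 2.3.3 and matplotlib 3.10.9 under python 3.11.15.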

Additional observations from a re-analysis of the deposited data

How the results depend on the processing

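All member sites rest on few reads. The lowest read number of a passing peak was 6 to 8 by library, and member sites had 6 to 11. Reads alone did not set what passed: STAT3 had 10 in VAL rep1, over a background of 3.18, and did not pass. An effect of depth was not tested. Of 82 values under alternatives, 62 stayed within 1.5 times the reported count. They include counts that were 0 in both, as for members in VAL rep1. A fall from 3 to 2 members in VAL rep2, where JAK3 was lost, is also among them. With a -log10 q of at least 2, members with a passing promoter peak rose to 5 in OCI-Ly1 rep2, 6 in VAL rep2 and 5 in both lines (JAK1, SOCS1, STAT3, STAT6 and TYK2), the list genes to 14, 20 and 7, and members with a passing peak inside the gene to 1 in OCI-Ly1 rep2 (JAK1) and 2 in VAL rep2 (JAK1 and JAK2). With at least 5, the list genes fell to 3 in OCI-Ly1 rep2, 1 in VAL rep1 and 5 in VAL rep2, and the inside peak of JAK2 was lost (0). JAK3 was lost with at least 5 and with a window of 1 kb, which left 1 list gene in VAL rep1. Counting a peak for its closest TSS only left 1 list gene in VAL rep1 and 1 in both lines. Leaving out a VAL replicate gave 0 to 1 members in both lines, with STAT3 lost without rep2, and it was 0 where both VAL replicates had to pass or the summits of the lines had to lie within 100 bp. Without OCI-Ly1 rep2 no value could be given. With CCGGAAGT 0 members of OCI-Ly1 rep2 had the motif at the summit, and with GGAA 2 of VAL rep2 (JAK3 and STAT3). The stricter and looser thresholds and motifs change these counts by construction, and the causes of the loss without VAL rep2 were not tested. No paired analysis was possible because the list of OCI-Ly1 rep1 places no sites and the results come from no test.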
